A study of Mus musculus with 12 samples.

Results

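The proteins that release neurotransmitter from nerve terminals were followed here at the level of their transcripts. Members were taken by gene symbol, with no measured value in the rule: the synaptotagmins (Syt), the syntaxins (Stx), the SNAP-25 family and Snap91, the VAMPs, the complexins (Cplx), the syntaxin-binding proteins (Stxbp), the Doc2 proteins and the RIM proteins (Rims). The rule found 58 of the 27381 genes on the array, in 13 groups by role.

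A synaptic vesicle fuses when a vesicle SNARE of the VAMP family zippers together with syntaxin and SNAP-25 on the plasma membrane. Synaptotagmins and Doc2 proteins bind calcium and membranes and couple the calcium signal to fusion, complexins clamp and promote the assembled SNARE bundle, and Munc18 proteins, which are among the Stxbp genes, hold syntaxin and guide its assembly. RIM proteins belong to the active zone, where they tether vesicles and gather calcium channels, and together these parts set how readily a synapse transmits.

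Pooled RNA was measured on Mouse Gene 2.0 ST arrays, whose probes lie along the exons of a gene. There were 4 groups of 3 pools, with 1 array per pool: HC trained (hippocampus of trained mice), HC control (hippocampus of control mice), ACC trained (anterior cingulate cortex of trained mice) and ACC control (anterior cingulate cortex of control mice). All mice were of the strain written C57B16/J in the labels, had surgery for head fixation at 8 to 12 weeks of age with 7 days of recovery, and were deprived of water. Trained mice learned to answer a visual cue for water over 27 ± 2.6 days (the kind of error is not given in the sources used here), and control mice received water at random. An HC pool is given as 7 mice and an ACC pool as 5, pools 1 and 2 of each group came from a first experiment and pool 3 from its repeat, and the size of the pools in the repeat is not settled by the labels. The p-values therefore measure the spread between pools. The paper states that trained and control mice were paired as same-sex littermates and that both regions were taken from the mice. Which mice went into which pool is not given, and the fit took all pools as independent. The region effect (HC against ACC) was fitted over 6 pools on each side, and the training effect over 3.

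All values are log2 expression values, so that a difference of 1 is a doubling. Receptors of the nose were taken as background: of 1360 odorant and vomeronasal receptor genes, 95% lay below 2.76. Of the 58 members, 55 had a mean level above that line (58.6% of all genes did). The 3 below it were Stx11 at 2.46, Cplx4 at 1.58 and Stx19 at 1.52, and a difference there has little signal behind it. Markers went with the labelled regions: of 16 genes that mark neurons of the hippocampal subfields 11 were higher in HC and 1 lower, while 9 of 14 genes of cortical layer neurons were lower in HC and 1 higher. Other cells differed as well. All 11 genes of oligodendrocytes and myelin were higher in HC, with a mean level of 7.34 to 7.41 in HC pools and 6.18 to 7.10 in ACC pools, and a summed linear level of 2280 to 2394 in HC pools and 1047 to 1898 in ACC pools. The 10 choroid plexus genes were also all higher in HC, with a mean level of 4.44 to 5.26 in HC pools and 3.09 to 3.28 in ACC pools and a summed linear level of 1255 to 2470 in HC pools and 109 to 121 in ACC pools, although Tmem72 and Otx2 of this list had a mean below the background line. Of the astrocyte genes, 7 of 10 were higher in HC. Fewer cells of a type and less RNA per cell cannot be told apart in such tissue, and the part that these cell types have in the region differences was not tested.

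HC and ACC differed in several families of the release machinery, most of all in the Doc2 proteins, syntaxin 1a and the RIM proteins. At an adjusted p under 0.05 (limma, Benjamini-Hochberg adjustment over the whole table), 21 of the 58 members differed between the regions, which is 36.2% against 18.5% of all genes tested. Of these, 6 were higher in HC (10.3% of members, against 9.71% of all genes) and 15 were lower (25.9%, against 8.74%). Among genes above the background line the share was 38.2% of the 55 members and 27.7% of all genes. The median difference of the 58 members was -0.04, beside -0.01 for all genes, and the median size was 0.14, beside 0.10. A difference over 1 was found for 4 members (6.9%, against 1.08% of all genes): Doc2b, higher in HC, and Doc2a, Stx1a and Rims3, lower in HC. The pools of the 2 regions did not overlap for 17 members (29.3%, against 11.1% of all genes). All 21 members kept their direction in the first experiment and in the repeat, and in trained and in control pools. These are parts of the pools on which the 21 were called, so that agreement is no separate test. The 2 experiments lay closer to each other than other divisions of the pools did, and whether the deposited values had been adjusted for batch is not given in the sources used here, so how far the repeat is independent is not known.

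**Figure D1:**
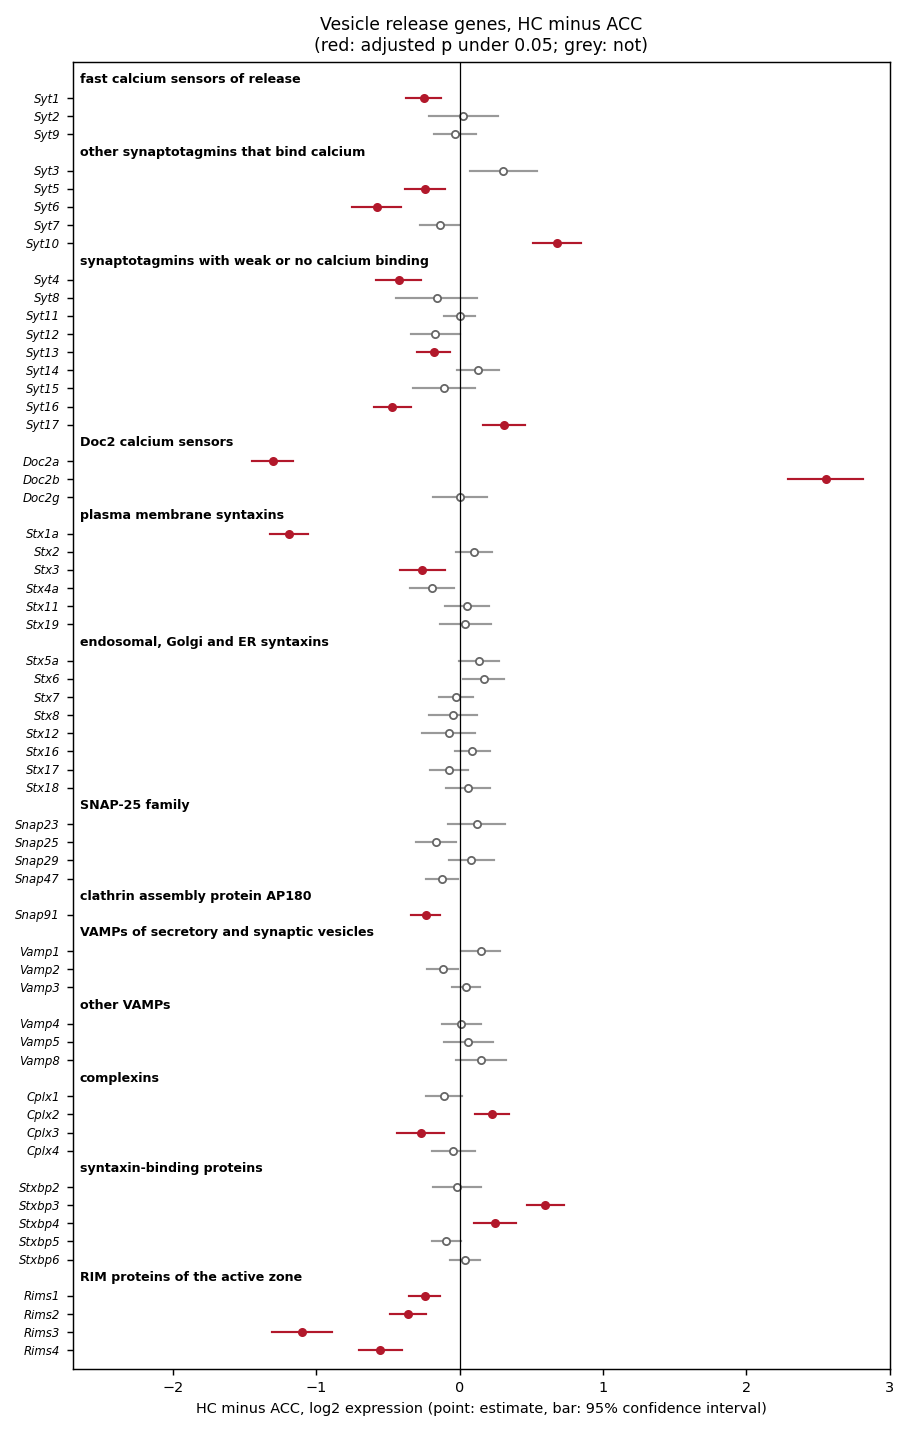
HC minus ACC in log2 expression (x axis) for the 58 members, ordered down the page by role, with points for the estimate and bars for the 95% confidence interval. Red points mark the 21 members at an adjusted p under 0.05. Doc2b lies far to the right at 2.55, Doc2a, Stx1a and Rims3 lie far to the left, and most syntaxins of inner membranes, SNAP-25 proteins and VAMPs lie around 0.

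The Doc2 proteins, of which Doc2a and Doc2b are high-affinity calcium sensors with a pair of C2 domains, split between the regions. Doc2b, which in neurons supports spontaneous and delayed release, ran from 6.58 over a median of 6.68 to 6.77 in HC pools, and from 3.68 over 4.15 to 4.53 in ACC pools. Every HC pool was thus above every ACC pool, by more than the whole spread of either region. The difference was 2.55 (SE 0.12, adjusted p = 2.6e-08), or 5.86-fold. Doc2a went the other way: it ran from 4.63 over 4.78 to 4.90 in HC pools and from 5.98 over 6.05 to 6.22 in ACC pools, a difference of -1.31 (SE 0.07, adjusted p = 4.1e-08), or 2.47-fold lower in HC. Doc2g, the member without high-affinity calcium binding, differed by 0.00 (95% confidence interval -0.19 to 0.19, adjusted p = 0.995). Both calls were alike in the first experiment (2.59 for Doc2b and -1.32 for Doc2a) and in the repeat (2.48 for Doc2b and -1.28 for Doc2a). The lowest Doc2b value belonged to ACC control pool 1, which also had the highest myelin marker level of the ACC pools (7.10), and without that pool the difference was 2.43. A link between the marker level and the Doc2b value was not tested.

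**Figure D2:**
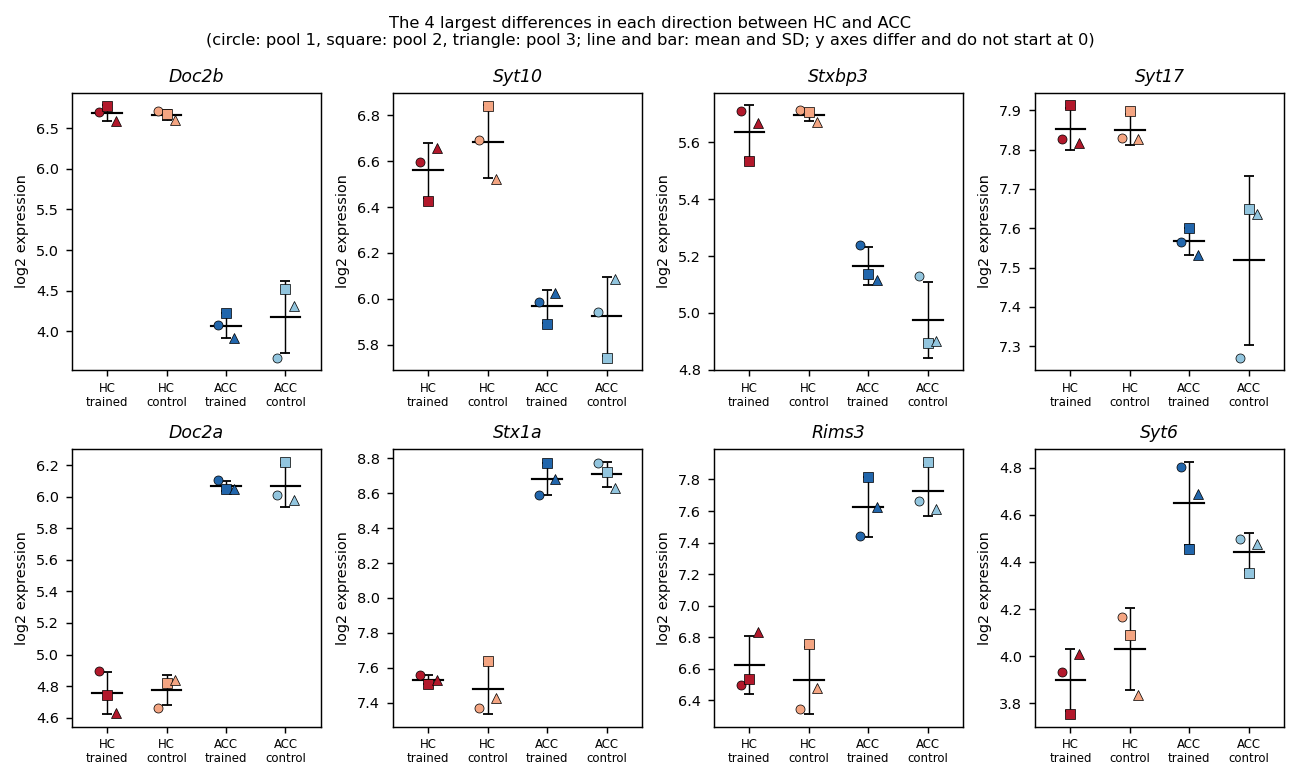
Log2 expression (y axes, each with its own range) in the pools of HC trained, HC control, ACC trained and ACC control for the 4 members with the largest difference in each direction. Each symbol is a pool, and lines and bars give the mean and SD of 3 pools. For all 8 members the HC pools and the ACC pools do not overlap. Training differences within a region are smaller than the region difference, the largest being 0.20 for Syt6 and 0.19 for Stxbp3, both in ACC.

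Among the syntaxins of the plasma membrane, Stx1a, the neuronal SNARE that pairs with SNAP-25, stood out. It ran from 7.37 over 7.52 to 7.64 in HC pools and from 8.59 over 8.70 to 8.78 in ACC pools, a difference of -1.19 (SE 0.06, adjusted p = 4.5e-08), or 2.28-fold lower in HC. The gap between the nearest pools of the 2 regions was wider than the spread within either. Stx3, which serves dendritic and ribbon synapse exocytosis, was lower in HC by a smaller margin, at -0.26 (SE 0.07, adjusted p = 0.023), and its pools overlapped. It missed the threshold without ACC control pool 1 or 3, ACC trained pool 1, or HC control pool 2 or 3 (adjusted p of 0.0502 to 0.0572). The other 4 (Stx2, Stx4a, Stx11 and Stx19) ran from -0.19 to 0.10 and did not pass. None of the 8 syntaxins of endosomes, the Golgi and the endoplasmic reticulum passed either (18.5% of all genes did), and their differences lay between -0.08 and 0.17.

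The RIM proteins were the one role group of several members in which every member was lower in HC (8.74% of all genes were). Rims3, a short form that holds only the C-terminal C2 domain, ran from 6.34 over 6.52 to 6.84 in HC pools and from 7.44 over 7.64 to 7.91 in ACC pools (difference -1.10, SE 0.10, adjusted p = 4.2e-06, 2.15-fold lower in HC). Rims4, the other short form, ran from 6.04 over 6.12 to 6.30 in HC pools and from 6.58 over 6.64 to 6.87 in ACC pools (difference -0.55, SE 0.07, adjusted p = 9.9e-05). The differences of the long forms were smaller. Rims2 ran from 6.98 over 7.01 to 7.19 in HC pools and from 7.34 over 7.41 to 7.50 in ACC pools (difference -0.36, SE 0.06, adjusted p = 6.6e-04), and Rims1 from 8.44 over 8.47 to 8.53 in HC pools and from 8.62 over 8.75 to 8.78 in ACC pools (difference -0.24, SE 0.05, adjusted p = 0.0038). For none of the 4 did HC and ACC pools overlap, and the median difference was -0.46.

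The regulatory stretch around the transcription start is shown for the 2 members with the largest difference in each direction for which a promoter was at hand, so that genes with opposite region differences can be read side by side. The sequences are from RefSeq (GRCm38.p6), run 5′ to 3′ on the strand of the gene from 250 bases before to 50 after the start, and capitals mark GGGCGG or its complement CCGCCC (the GC box, which Sp factors bind) and TGACGTCA (the full cAMP response element). Syt10 lies at chr15:89841811-89842110 and Stxbp3 at chr3:108840453-108840752, both on the minus strand and both higher in HC. Stx1a lies at chr5:135023232-135023531 and Rims3 at chr4:120854549-120854848, both on the plus strand and both lower in HC.
Syt10: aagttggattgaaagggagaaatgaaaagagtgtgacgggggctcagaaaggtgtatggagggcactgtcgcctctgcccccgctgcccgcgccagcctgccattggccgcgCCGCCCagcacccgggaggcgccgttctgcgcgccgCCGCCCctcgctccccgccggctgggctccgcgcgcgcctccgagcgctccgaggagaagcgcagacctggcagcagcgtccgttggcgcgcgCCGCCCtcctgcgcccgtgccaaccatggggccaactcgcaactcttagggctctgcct
Stxbp3: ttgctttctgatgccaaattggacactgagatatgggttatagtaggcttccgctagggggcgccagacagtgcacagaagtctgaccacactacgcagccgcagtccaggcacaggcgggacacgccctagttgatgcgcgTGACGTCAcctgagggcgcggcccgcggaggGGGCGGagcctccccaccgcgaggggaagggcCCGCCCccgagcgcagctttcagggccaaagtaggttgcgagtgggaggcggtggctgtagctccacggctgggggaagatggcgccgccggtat
Stx1a: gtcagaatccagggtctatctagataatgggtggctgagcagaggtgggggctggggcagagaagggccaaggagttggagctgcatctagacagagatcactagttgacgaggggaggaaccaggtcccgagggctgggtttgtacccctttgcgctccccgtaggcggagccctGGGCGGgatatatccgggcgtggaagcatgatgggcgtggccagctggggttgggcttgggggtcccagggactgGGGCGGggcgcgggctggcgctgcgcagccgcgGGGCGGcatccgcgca
Rims3: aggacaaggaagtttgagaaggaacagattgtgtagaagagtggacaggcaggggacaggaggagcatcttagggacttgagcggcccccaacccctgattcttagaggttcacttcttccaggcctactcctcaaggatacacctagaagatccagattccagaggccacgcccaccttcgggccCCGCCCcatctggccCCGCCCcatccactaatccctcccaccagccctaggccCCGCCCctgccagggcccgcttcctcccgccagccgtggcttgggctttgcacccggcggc
Both pairs, higher and lower in HC, had GC-rich starts of the same kind. The GC content was 70.7% for Syt10, 65.3% for Stxbp3, 66.3% for Stx1a and 62.3% for Rims3, beside a median of 52.7% over all promoters in the table. GC boxes were found 3 times in Syt10, 2 times in Stxbp3, 3 times in Stx1a and 3 times in Rims3, and the cAMP response element once, in Stxbp3. Promoters were at hand for 44 of the 58 members (55 promoters, some genes having several starts), and those of Doc2a and Doc2b were not among them. On either strand, GGGCGG was in 36 of these 55 (65.5%) and in 35.7% of all 32851 promoters, TGACGTCA in 1 (1.82%) and in 1.79% of all, and CACGTG, the E-box, in 7 (12.7%) and in 7.15% of all. A match is a run of letters and says nothing of a factor bound there.

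Of the 17 synaptotagmins, 2 were higher in HC and 6 lower, where 9.71% of all genes were higher and 8.74% lower. Syt1, the sensor for fast synchronous release in most forebrain synapses, was slightly lower in HC at -0.25 (SE 0.06, adjusted p = 0.0068), with 10.57 over 10.61 to 10.76 in HC pools and 10.72 over 10.89 to 11.01 in ACC pools. Those ranges overlapped, since the lowest ACC pool (ACC control pool 3) lay below the highest HC pool (HC trained pool 3). The other fast sensors did not pass: Syt2 differed by 0.03 and Syt9 by -0.03. For Syt2 the 2 experiments went opposite ways, with -0.20 in the first and 0.48 in the repeat.

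Among the other calcium-binding synaptotagmins the directions were mixed. Syt10, a sensor of IGF-1 release in olfactory bulb neurons, ran from 6.43 over 6.63 to 6.84 in HC pools and from 5.74 over 5.96 to 6.09 in ACC pools (difference 0.68, SE 0.08, adjusted p = 3.8e-05, 1.60-fold). Its relative Syt6 ran from 3.75 over 3.97 to 4.17 in HC pools and from 4.35 over 4.49 to 4.80 in ACC pools (difference -0.58, SE 0.08, adjusted p = 2.0e-04). These 2 belong to the same branch of the family and moved apart. Syt5 was lower in HC at -0.24 (SE 0.07, adjusted p = 0.020), and missed the threshold without ACC control pool 2 (adjusted p = 0.0516) or HC control pool 3 (adjusted p = 0.0505). Syt3, a postsynaptic and slow sensor, was at 0.30 (adjusted p = 0.068) and Syt7, the sensor of facilitation and asynchronous release, at -0.14 (adjusted p = 0.16), and neither passed.

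The 9 synaptotagmins with weak or no calcium binding gave 1 member higher in HC and 3 lower (9.71% and 8.74% of all genes). Syt16 was lower, from 6.69 over 6.75 to 6.94 in HC pools and from 7.11 over 7.26 to 7.35 in ACC pools (difference -0.47, SE 0.06, adjusted p = 8.3e-05). Syt4, which rides on dense-core vesicles and answers to neuronal activity, was lower too, from 8.04 over 8.13 to 8.39 in HC pools and from 8.45 over 8.59 to 8.76 in ACC pools (difference -0.43, SE 0.07, adjusted p = 0.001). Syt13 was lower at -0.18 (SE 0.05, adjusted p = 0.031), a call that was lost without ACC control pool 1 or 2, ACC trained pool 2 or 3, HC control pool 2 or 3, or HC trained pool 1 or 3 (adjusted p of 0.0508 to 0.0774). Syt17 was the one that was higher in HC, from 7.82 over 7.83 to 7.91 in HC pools and from 7.27 over 7.58 to 7.65 in ACC pools (difference 0.31, SE 0.07, adjusted p = 0.0062). Its lowest value was again ACC control pool 1, and without that pool the difference was 0.25 (adjusted p = 0.0056). Syt11, which restrains vesicle uptake, differed by 0.00 with a 95% confidence interval of -0.11 to 0.11.

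The complexins also divided. Cplx2 was higher in HC, from 8.54 over 8.59 to 8.61 in HC pools and from 8.24 over 8.37 to 8.51 in ACC pools (difference 0.23, SE 0.05, adjusted p = 0.011), and no pools overlapped. Cplx3, the complexin of retinal ribbon synapses and of deep cortical neurons, was lower in HC at -0.27 (SE 0.08, adjusted p = 0.025) with overlap. That call was lost without ACC control pool 1, ACC trained pool 1, HC control pool 1 or 3, or HC trained pool 2 (adjusted p of 0.0522 to 0.06). Cplx1 did not pass at -0.11 (adjusted p = 0.23) and a 95% confidence interval of -0.24 to 0.02.

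Of the 5 syntaxin-binding proteins, 2 were higher in HC and none lower, where 9.71% of all genes were higher and 8.74% lower. Stxbp3 (Munc18c), which pairs with the non-neuronal syntaxins of the plasma membrane, ran from 5.53 over 5.69 to 5.71 in HC pools and from 4.90 over 5.12 to 5.24 in ACC pools (difference 0.60, SE 0.06, adjusted p = 1.3e-05, 1.51-fold). Stxbp4, a partner of syntaxin 4 that answers to insulin in fat cells, ran from 5.95 over 6.03 to 6.24 in HC pools and from 5.69 over 5.80 to 6.02 in ACC pools (difference 0.25, SE 0.07, adjusted p = 0.021), and missed the threshold without ACC control pool 3 (adjusted p = 0.051). Snap91 (AP180), an adaptor that builds clathrin coats for vesicle retrieval and is no SNARE despite its symbol, was lower in HC at -0.24 (SE 0.05, adjusted p = 0.0029), and its HC pools (9.06 to 9.12) lay wholly below its ACC pools (9.27 to 9.37).

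The partners of Stx1a in the fusion complex had no difference of that size. Snap25 ran from 11.05 over 11.13 to 11.34 in HC pools and from 11.14 over 11.38 to 11.43 in ACC pools (difference -0.16, SE 0.06, adjusted p = 0.10). Vamp2, the main vesicle SNARE, ran from 9.46 over 9.52 to 9.63 in HC pools and from 9.59 over 9.66 to 9.70 in ACC pools (difference -0.12, SE 0.05, adjusted p = 0.13). Neither passed after adjustment, and their 95% confidence intervals (-0.30 to -0.02 for Snap25 and -0.23 to -0.01 for Vamp2) do not reach the size seen for Stx1a. None of the 4 SNAP-25 proteins and none of the 6 VAMPs passed (18.5% of all genes did), with differences of -0.16 to 0.15 over both families. In all, the 37 members that did not pass lay between -0.19 and 0.30.

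The region differences were seen with and without training. Between the trained pools of the 2 regions 14 members passed (24.1%, against 9.3% of all genes), and between the control pools 16 (27.6%, against 13.3%). Both contrasts came from the model of all 4 groups, which share one estimate of the spread. The count in control pools was 10 without ACC control pool 3 or without any 1 of the HC control pools, and both counts were 8 in the first experiment alone. For Doc2b the difference was 2.61 in trained pools and 2.49 in control pools. For Doc2a it was -1.31 in trained pools and -1.30 in control pools, and for Stx1a -1.15 in trained pools and -1.23 in control pools. The sexes were not balanced between the control pools of the 2 regions. Y-linked genes had a mean level of 3.96 to 5.04 in HC control pools and of 3.38 to 3.59 in ACC control pools. The inactive X transcript Xist was at 7.11 to 8.15 in HC control pools and at 8.20 to 8.52 in ACC control pools. In trained pools both overlapped between the regions, and the part of sex in the region differences was not tested. Whether a region difference itself changed with training is the region x training effect given further on, which passed for no member.

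Genes that work beside the members were read from 7 lists of 112 genes: 15 were higher in HC and 22 lower, 33.0% in all, beside 18.5% of all genes tested and 27.7% of those above the background line. Of 26 genes of the active zone and of vesicle priming, 4 were higher and 8 lower. Rab27a, a small GTPase of secretory granules, was higher by 0.82 (adjusted p = 1.4e-05) and the liprin Ppfia4 by 0.76 (adjusted p = 8.8e-06). Rph3a, a Rab3 effector with C2 domains, was lower at -0.55 (adjusted p = 1.5e-05) and so was Bsn, the scaffold Bassoon, at -0.50 (adjusted p = 3.9e-05). Of 15 genes of the vesicle membrane and the synapsins, 2 were higher (Sv2c at 0.41, Syngr2 at 0.32) and 6 lower, among them Syn3 at -0.51 and Sv2b at -0.30. Of 21 endocytosis genes, 3 were higher (Ston2 at 0.41 and Sh3gl1 at 0.18 among them) and 3 lower, with Synj2 at -0.42 and Dnm3 at -0.38.

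The remaining lists held fewer calls. Of 7 vesicular transmitter transporters 2 were higher in HC: Slc17a6 (VGLUT2) by 0.74 (adjusted p = 1.8e-04) and Slc18a2 (VMAT2) by 0.32 (adjusted p = 0.024). Slc17a6 is itself among the 10 thalamic marker genes, of which 5, with Slc17a6 counted, were higher in HC and 2 lower. The mean level of the 10, Slc17a6 included, was 5.24 to 5.41 in HC pools and 4.81 to 4.92 in ACC pools. The part of thalamic neurons in the Slc17a6 difference was not tested. Of 14 synaptotagmin-like proteins, extended synaptotagmins and ferlins, 2 were higher (Sytl5 at 0.52, Myof at 0.31) and 3 lower, with the ferlin Otof at -0.94 and Sytl2 at -0.77. Otof is also one of the cortical layer markers. Of 20 other SNAREs and SM proteins of the secretory route, 2 were higher (Bet1 at 0.48, Use1 at 0.19) and 1 lower (Vti1b at -0.28). Of 9 genes of SNARE disassembly 1 passed, the chaperone Dnajc5 at -0.16.

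Training, the question of the study, left the release machinery without a change that passed the test. In ACC, in HC, in the mean of both regions and for region x training, 0 of the 58 members had an adjusted p under 0.05 by limma, and 0 of all genes did (0%). At an unadjusted p under 0.05 there were 4 members in ACC (6.9%, against 6.95% of all genes), 4 in HC (6.9%, against 6.82%), 2 in the mean of both regions (3.45%, against 5.04%) and 4 for region x training (6.9%, against 8.86%). Trained and control pools did not overlap for 5 members in ACC (8.62%, against 11.6% of all genes) and for 5 in HC (8.62%, against 12.3%). These shares were below those of all genes, apart from the unadjusted count in HC, which was close to it. Of the 58 members, 57 lay within 0.5 of zero in both regions.

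**Figure D3:**
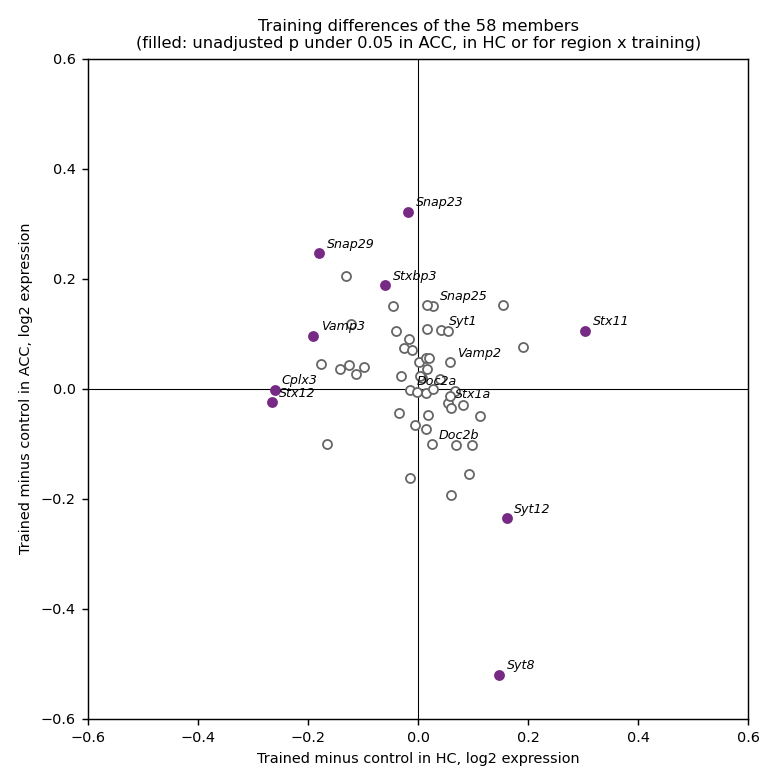
Trained minus control in HC (x axis) and in ACC (y axis), in log2 expression, for the 58 members. Filled points are the 9 members at an unadjusted p under 0.05 in ACC, in HC or for region x training, and 57 of the 58 points lie within 0.5 on both axes, with Syt8 (-0.52 in ACC) outside.

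The core of the release machinery could be bounded closely. In ACC, Syt1 was at 10.92, 10.89 and 11.01 in trained pools and at 10.88, 10.90 and 10.72 in control pools, a difference of 0.11 (SE 0.08, adjusted p = 0.85). Snap25 was at 11.39, 11.39 and 11.43 in ACC trained pools and at 11.26, 11.36 and 11.14 in ACC control pools, a difference of 0.15 (SE 0.09, adjusted p = 0.80) with pools that did not overlap. Stx1a, which set the regions so far apart, was at 8.59, 8.77 and 8.68 in ACC trained pools and at 8.78, 8.72 and 8.63 in ACC control pools, with no separation by training. Vamp2 was at 9.68, 9.70 and 9.64 in ACC trained pools and at 9.60, 9.68 and 9.59 in ACC control pools.

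In HC neither Syt1 nor Snap25 separated trained from control pools. Syt1 was at 10.62, 10.59 and 10.76 in trained pools and at 10.67, 10.60 and 10.57 in control pools, and Snap25 at 11.11, 11.09 and 11.34 in trained pools and at 11.15, 11.26 and 11.05 in control pools. For both genes, in HC and in ACC, the repeat gave the highest of the 3 trained values and the lowest of the 3 control values. The training difference of Syt1 in HC was -0.03 in the first experiment and 0.18 in the repeat, and in ACC 0.01 and 0.29. That of Snap25 in HC was -0.10 in the first experiment and 0.28 in the repeat, and in ACC 0.08 and 0.29. The repeat holds only pool 3 of each group. Stx1a was at 7.56, 7.51 and 7.53 in HC trained pools and at 7.37, 7.64 and 7.42 in HC control pools.

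Cplx1, Cplx2 and Rims1 likewise overlapped between trained and control pools in both regions. Cplx1 was at 9.30, 9.30 and 9.24 in HC trained pools, 9.27, 9.26 and 9.31 in HC control pools, 9.42, 9.54 and 9.24 in ACC trained pools and 9.46, 9.35 and 9.33 in ACC control pools. Cplx2 was at 8.61, 8.59 and 8.54 in HC trained pools, 8.56, 8.61 and 8.59 in HC control pools, 8.38, 8.24 and 8.36 in ACC trained pools and 8.39, 8.28 and 8.51 in ACC control pools. Rims1, the main tether of the active zone, was at 8.44, 8.48 and 8.50 in HC trained pools, 8.45, 8.46 and 8.53 in HC control pools, 8.78, 8.75 and 8.62 in ACC trained pools and 8.75, 8.68 and 8.74 in ACC control pools. Vamp2 was at 9.63, 9.58 and 9.46 in HC trained pools and at 9.53, 9.47 and 9.50 in HC control pools, which overlapped too. Over Syt1, Snap25, Stx1a, Vamp2, Cplx1, Cplx2 and Rims1 the training difference lay between -0.07 and 0.15 in ACC (95% confidence bounds from -0.23 to 0.35, adjusted p of 0.795 to 0.996 by limma) and between -0.01 and 0.06 in HC (bounds from -0.18 to 0.24, adjusted p of 0.938 to 0.998 by limma). Larger changes of these 7 transcripts lie outside the intervals, and changes within them are not excluded.

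The members nearest to a training difference in ACC were Syt8, Snap23, Snap29 and Stxbp3, and none passed over all genes. Syt8, one of the synaptotagmins with weak or no calcium binding, was at 3.23, 3.94 and 3.69 in ACC trained pools and at 3.77, 4.32 and 4.33 in ACC control pools (difference -0.52, SE 0.18, unadjusted p = 0.015 and adjusted p = 0.62 by limma), and trained pool 2 lay above control pool 1. Without trained pool 1 the difference was -0.33. Snap23, the SNAP-25 relative found in most tissues and at postsynaptic sites, was at 5.32, 4.70 and 4.98 in ACC trained pools and at 4.77, 4.60 and 4.66 in ACC control pools (difference 0.32, SE 0.13, unadjusted p = 0.029 and adjusted p = 0.67 by limma). That value leaned on trained pool 1, without which it was 0.16. Stxbp3 was at 5.24, 5.14 and 5.12 in ACC trained pools and at 5.13, 4.90 and 4.90 in ACC control pools (difference 0.19, SE 0.08, unadjusted p = 0.044 and adjusted p = 0.71 by limma). The sexes were not balanced between these groups: Y-linked genes had a mean level of 5.11, 3.89 and 4.33 in ACC trained pools and of 3.59, 3.38 and 3.41 in ACC control pools (summed linear level 45.9 to 111 in ACC trained pools and 32.4 to 38.6 in ACC control pools), and their part in the ACC values was not tested.

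Snap29, a SNARE of endosomes and autophagosomes, gave different values in the 2 experiments. In ACC it was at 5.73, 5.77 and 5.50 in trained pools and at 5.33, 5.37 and 5.56 in control pools (difference 0.25, SE 0.10, unadjusted p = 0.032 and adjusted p = 0.68 by limma). The first experiment gave 0.40 and the repeat -0.06. In HC it was at 5.60, 5.42 and 5.58 in trained pools and at 5.75, 5.82 and 5.57 in control pools, with -0.28 in the first experiment and 0.01 in the repeat.

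In HC the nearest were Stx11, Vamp3, Cplx3 and Stx12. Stx11, a syntaxin of immune cells, was at 2.57, 2.72 and 2.63 in HC trained pools and at 2.14, 2.36 and 2.50 in HC control pools (difference 0.30, SE 0.10, unadjusted p = 0.0093 and adjusted p = 0.56 by limma), all of them below the background line of 2.76. Cplx3 was at 4.26, 4.16 and 4.33 in HC trained pools and at 4.45, 4.62 and 4.47 in HC control pools (difference -0.26, SE 0.11, unadjusted p = 0.033 and adjusted p = 0.67 by limma), and the pools did not overlap. Stx12, an endosomal syntaxin, was at 6.44, 5.86 and 6.31 in HC trained pools and at 6.46, 6.53 and 6.40 in HC control pools (difference -0.27, SE 0.12, unadjusted p = 0.046 and adjusted p = 0.72 by limma). It rested on HC trained pool 2, without which the difference was -0.10, and that pool also had the lowest choroid plexus marker level of the HC pools (4.44). A link between the marker level and the Stx12 value was not tested.

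Vamp3 (cellubrevin), a vesicle SNARE of recycling endosomes, had the tightest pools of these genes and the smallest p for region x training. In HC it was at 5.39, 5.44 and 5.40 in trained pools and at 5.62, 5.59 and 5.59 in control pools (difference -0.19, SE 0.06, unadjusted p = 0.010 and adjusted p = 0.56 by limma). In ACC it was at 5.51, 5.52 and 5.50 in trained pools and at 5.39, 5.44 and 5.41 in control pools (difference 0.10, SE 0.06, unadjusted p = 0.15 and adjusted p = 0.82 by limma). In neither region did trained and control pools overlap, and the order was opposite in the 2 regions. The share of all genes with such an opposite order was not counted. The difference between the regions was -0.29 (SE 0.09, unadjusted p = 0.0069 and adjusted p = 0.37 by limma), so it did not pass over all genes.

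**Figure D4:**
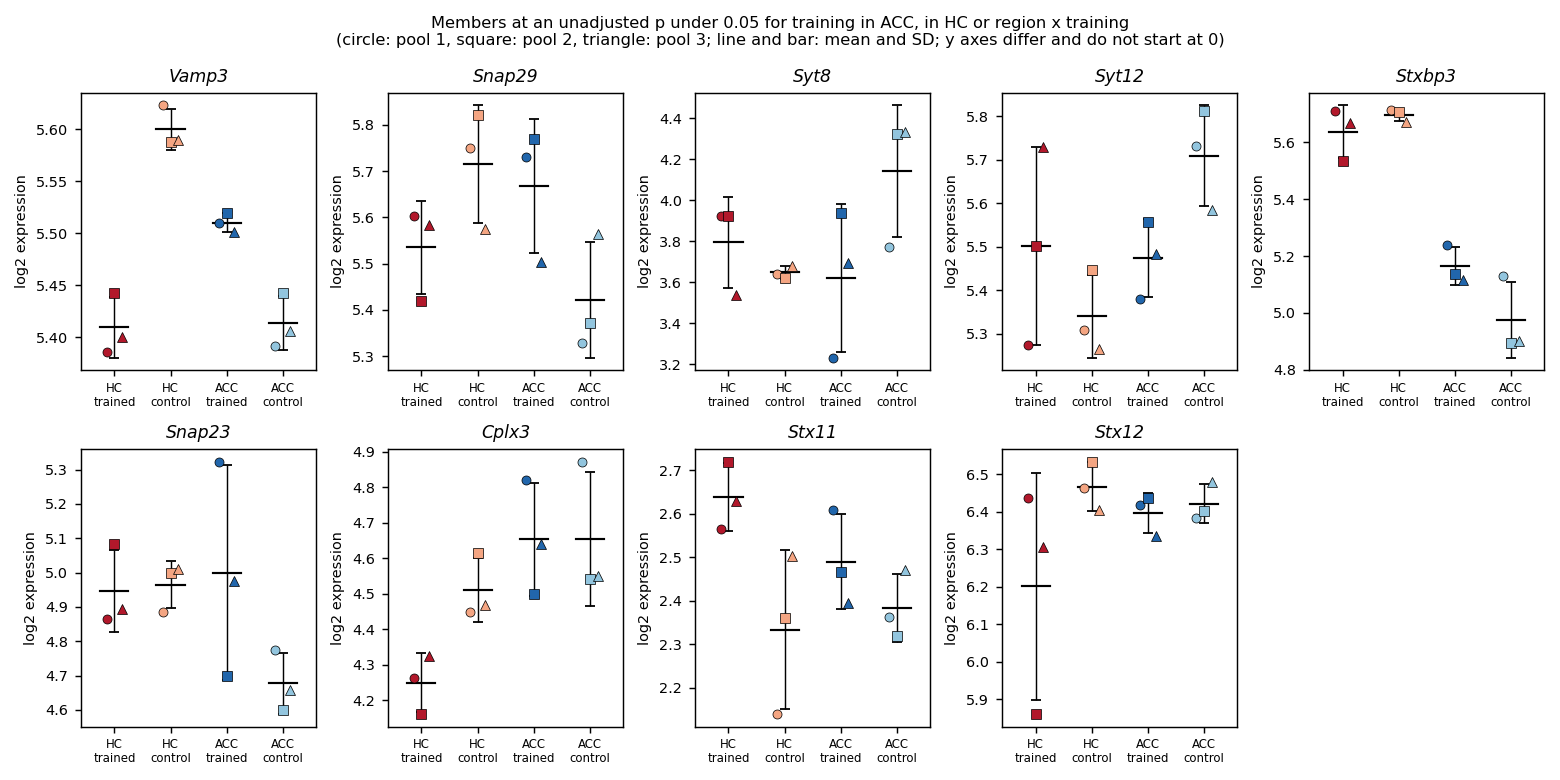
Log2 expression (y axes, each with its own range) in the pools of HC trained, HC control, ACC trained and ACC control for the 9 members at an unadjusted p under 0.05 for training in ACC, in HC or for region x training. Each symbol is a pool, and lines and bars give the mean and SD of 3 pools. Vamp3 is lower in trained HC pools and higher in trained ACC pools with no overlap in either region, Stx12 rests on HC trained pool 2 at 5.86, and Snap23 on ACC trained pool 1 at 5.32.

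The other members that led region x training were Snap29 at -0.43 (SE 0.14, unadjusted p = 0.012 and adjusted p = 0.40 by limma), Syt8 at 0.67 (SE 0.26, unadjusted p = 0.024 and adjusted p = 0.48 by limma) and Syt12 at 0.40 (SE 0.16, unadjusted p = 0.027 and adjusted p = 0.49 by limma). Syt12, a synaptotagmin without calcium binding that is phosphorylated by protein kinase A, was at 5.38, 5.56 and 5.48 in ACC trained pools and at 5.73, 5.81 and 5.58 in ACC control pools, which do not overlap. In HC it was at 5.27, 5.50 and 5.73 in trained pools and at 5.31, 5.45 and 5.26 in control pools, which do. In the mean of both regions, Stx11 was at 0.21 (unadjusted p = 0.012 and adjusted p = 0.87 by limma) and Syt9, a fast calcium sensor, at 0.15 (unadjusted p = 0.041 and adjusted p = 0.98 by limma).

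Among the 112 genes of the neighbouring lists, 0 passed for training in either region, and 6 in ACC (5.36%) and 3 in HC (2.68%) had an unadjusted p under 0.05, below the shares of all genes. In ACC the smallest p belonged to Baiap3, a Munc13 relative that serves dense-core vesicle traffic, at -0.47 (adjusted p = 0.51 by limma), and in HC to Syngr4, a synaptogyrin, at 0.31 (adjusted p = 0.48 by limma). Scfd1, an SM protein of the early secretory route, was at 0.33 in ACC and -0.22 in HC, and Ap2m1, a subunit of the endocytic adaptor AP-2, at 0.53 in ACC and -0.20 in HC.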

How the data were processed

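Robust Multiarray Average (affy 1.62.0 in R 3.6.0, probe sets of 1 per Entrez gene) was applied by the authors to the 12 arrays, and they deposited log2 expression values for 27381 genes. The 2 experiments were analysed as one, and a later adjustment for batch is not given in the sources used here. The first experiment and the repeat differed by less than other divisions of the pools into the same numbers: the SD of their difference over genes was 0.053, against 0.084 to 0.11 for the 80 other choices. Symbols came from a table pairing probe sets with genes, and 587 genes without a symbol were tested but not named.

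A model of 4 group means with no covariate was fitted in limma 3.58.1 under R 4.3.3 (lmFit, then eBayes) on the whole table. The Benjamini-Hochberg adjustment ran over all genes of a contrast, with a threshold of 0.05. No filter was used. Arrays have no sequencing depth, so the 3 pools per group limit the precision. The procedure was tested on simulated data. The rule for the members uses symbols and no measured value, but it and the lists were chosen with earlier results of these data known, so the counts of members are descriptions.

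Pool ranges are given for the members with the largest region differences past the threshold (the 6 that were higher in HC and the 8 largest that were lower). Values per pool are given for members at an unadjusted p under 0.05 for training in ACC, training in HC or region x training, and for Syt1, Snap25, Stx1a, Vamp2, Cplx1, Cplx2 and Rims1. Of the other lists, the largest region differences and smallest training p are named. The fits were repeated with a block for batch or for replicate number, on the first experiment, on 1 region, with quantile normalization again, median centring, genes above the background line only, an intensity trend with robust variance, array weights, and without each array. Promoter sequences are from RefSeq (GRCm38.p6), and the stretch shown holds 300 bases.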

Additional observations from a re-analysis of the deposited data

Results flagged for a closer look

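Vamp3 was singled out among the 58 members because its pools moved in opposite directions in the 2 regions without overlap. How many of all genes do so was not counted. Without regard to direction, 11.6% of all genes had no overlap by training in ACC and 12.3% in HC. Every HC trained pool lay below every HC control pool (5.39, 5.44 and 5.40 against 5.62, 5.59 and 5.59), and every ACC trained pool lay above every ACC control pool (5.51, 5.52 and 5.50 against 5.39, 5.44 and 5.41). The difference between the training effects (HC minus ACC) was -0.29 on the log2 scale (SE 0.09, unadjusted p = 0.0069 and adjusted p = 0.37 by limma), with -0.30 to -0.28 when each pool was left out in turn. It did not pass over all genes under any alternative run (adjusted p of 0.31 to 0.65).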

How the results depend on the processing

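Of the 21 members called between the regions, 13 were called under all 20 alternatives: Doc2b, Stxbp3 and Syt10, higher in HC, and Doc2a, Stx1a, the 4 RIM genes, Syt1, Syt4, Syt6 and Syt16, lower in HC. With the first experiment alone, which has fewer pools, the call was lost for the other 8 (Syt17, Cplx2, Stxbp4, Snap91, Stx3, Cplx3, Syt5 and Syt13), so that 3 members were called higher, and 8 members each in trained and in control pools. Under that setting 2 members had an unadjusted p under 0.05 for training in HC and 2 for region x training. The HC training count was 7 with an intensity trend and robust variance, and the region x training count 7 with median centring. For the mean of both regions it was 1 with batch as a block, 1 with the replicate block and 4 with array weights. The cause of these shifts was not tested.

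Leaving out each pool in turn gave 5 to 7 members higher in HC, 11 to 15 lower, 10 to 14 called in trained pools and 10 to 15 in control pools. The counts at an unadjusted p under 0.05 were 1 to 5 for training in ACC, 2 to 5 in HC, 1 to 4 for the mean of both and 3 to 8 for region x training, and every adjusted count for training and for region x training was 0. Pools of the same number did not deviate together (correlations of -0.27 to 0.04 over 18 pairs). Deviations from a mean of 3 pools cannot show whether pools share mice or littermates, so a pairing is not excluded. With the replicate block 6 members were called higher in HC and 14 lower, Syt13 being lost (adjusted p = 0.0594), as it was with median centring (adjusted p = 0.0652). No region direction of a called member turned under any alternative. Levels near the receptor background, as for Stx11, Stx19 and Cplx4, bound what these arrays can show.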
